A study of Homo sapiens with 6 samples.

Results

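The H2A.Z regions of 6 windows that hold olfactory receptor gene clusters were described in HEK293T cells, a widely used line derived from human embryonic kidney. The windows were fixed by position alone, in hg19 coordinates: on chromosome 11 from 4.35 to 6.25 Mb, 54.95 to 56.60 Mb, 57.80 to 59.35 Mb and 123.60 to 124.50 Mb, and on chromosome 1 from 158.30 to 159.30 Mb and 247.25 to 248.95 Mb. They are called here by the band in which each starts, 11p15, 11q11, 11q12, 11q24, 1q23 and 1q44, and cover 8.70 Mb. The deposited peaks of ubiquitylated and of total H2A.Z were merged where they overlapped or touched, and a merged region belonged to a window when its midpoint lay inside it. This gave 283 member regions of 198179 in the whole series. All cells carried H2A.Z-1 fused at its C-terminus to Flag and the biotin ligase BirA together with ubiquitin fused at its N-terminus to the AviTag, transfected as plasmids in a ratio of 3 to 1 and collected after 48 hours. Streptavidin-agarose recovered nucleosomes with biotinylated ubiquitin (ubiquitylated H2A.Z, 2 samples), Flag M2-agarose recovered the tagged histone whatever its state (total H2A.Z, 2 samples), and an H3 antibody gave 2 further samples that enter no comparison here. The tagged proteins came from plasmids in a transformed line, so endogenous H2A.Z and cells that express olfactory receptors were not measured.

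Olfactory receptors are G protein-coupled receptors that detect odorants, and their genes form the largest gene family in mammals, arranged in clusters of closely related copies. An olfactory sensory neuron expresses a single allele of a single receptor gene; in mouse these neurons keep the other clusters in heterochromatin, and in most other tissues the clusters are silent. H2A.Z is a histone H2A variant that marks promoters and enhancers, and its mono-ubiquitylated form is known from the inactive X chromosome and from chromatin bound by Polycomb repressive complexes.

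RefSeq on GRCh38.p14, a later build than that of the peak lists, holds 875 genes and pseudogenes whose symbols mark them as olfactory receptors, of which 392 code for protein. Chromosome 11 carries 376 of them (171 protein-coding, 205 pseudogenes) and chromosome 1 carries 96 (61 protein-coding, 35 pseudogenes). The longest unbroken run on chromosome 11 has 35 members, ends at OR51V1 and is followed directly by the 5 beta-globin genes, which encode the beta-type chains of haemoglobin, and these by the pseudogene OR51AB1P. On chromosome 1 the longest run has 24 members, OR2M2 to OR14I1, and the 4 PYHIN genes, which encode interferon-inducible DNA sensors, directly follow the pseudogene OR10AA1P. The start regions of these receptor genes are poor in CpG dinucleotides. In the 300 bases around the start (250 before, 50 after), 191 olfactory receptor genes of chromosomes 11 and 1 with a RefSeq entry held a median of 1 CpG (quartiles 1 and 2) and a median GC content of 37.3%, against 14 CpG (quartiles 4 and 28) and 58.7% over 35116 genes of all kinds. No CpG was found in 45 of the 191 (23.6%) and in 1391 of all genes (3.96%). Gene positions in hg19 were not used here, so no member region is assigned to a gene, and no sequence of a member region is printed. The windows also hold other genes, so values of a window are not values of receptor genes alone. The receptor genes are close copies of each other. Nothing in the sources used here says how reads that match several copies were treated, and the part of such reads in the results below was not tested.

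With peak lists alone, sequencing depth is unknown and a region has no replicate error. Replicate spread is represented by the authors' irreproducible discovery rate (IDR, a measure per peak of how poorly it repeats between replicates, at most 0.05 here) and by the authors' FDR for the difference between the 2 pull-downs. Whether replicates were separate cultures is not stated. Intervals on shares are Wilson 95% intervals and intervals on densities are exact Poisson 95% intervals. Both cover counting error only and treat regions as independent, although neighbouring regions are not. Differences between the windows and the rest of the genome are given as values and were not tested.

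H2A.Z regions were sparser in each of the 6 olfactory receptor windows than over the rest of its chromosome. The 283 regions amount to 32.5 per Mb (28.9 to 36.6), against 78.1 per Mb over the rest of chromosome 11 and 88.8 per Mb over the rest of chromosome 1. In the 500 kb on either side of each window the density was 60.5 per Mb (54.4 to 67.2, 350 regions). The windows differed widely among themselves. The 11q11 window, which lies next to the centromere, was the emptiest with 15 regions, or 9.09 per Mb (5.09 to 15.0). The 1q44 window followed with 18.8 per Mb (12.9 to 26.6, 32 regions). The 11p15 and 11q12 windows were close to each other at 38.4 per Mb (30.1 to 48.3, 73 regions) and 39.4 per Mb (30.1 to 50.6, 61 regions). The 11q24 and 1q23 windows were the densest with 51.1 per Mb (37.4 to 68.2, 46 regions) and 56.0 per Mb (42.3 to 72.7, 56 regions), each still below the rest of its chromosome. Low density was not restricted to the olfactory receptor windows. Outside them, 2708 autosomal stretches of 1 Mb held at least 1 region. Their lower quartile was 18 regions, their median 37 and their upper quartile 92. Against this median, 11q11 and 1q44 lay below and the other 4 windows above, so that the low density of these 4 holds against the chromosome means and not against the median stretch. Without 11q11 the density of the remaining windows was 38.0 per Mb.

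**Figure D1:**
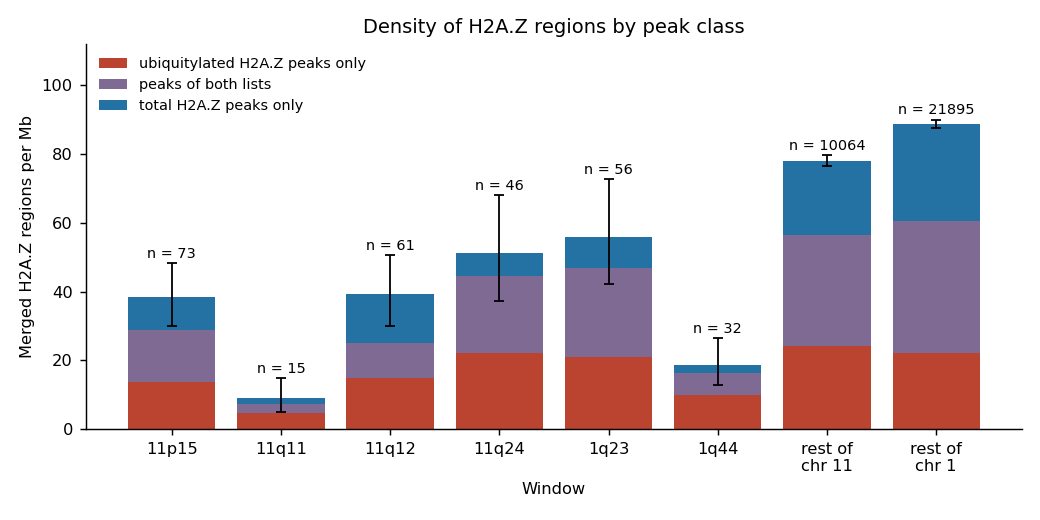
Merged H2A.Z regions per Mb (y axis) in each of the 6 windows and in the rest of chromosomes 11 and 1 (x axis), stacked by peak class; error bars are exact Poisson 95% intervals on the total and n is the number of regions. All 6 windows lie below the rest of their chromosome, with 11q11 lowest at 9.09 per Mb and 1q23 highest at 56.0 per Mb.

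Within the windows the regions were unevenly placed. Of 88 tiles of 100 kb (the last of a window may be shorter), 13 held no region and the median tile held 2. By contrast, 5 tiles held 10 or more and together 66 regions, or 23.3% of all members. The fullest was chr1:159100001-159200000 in the 1q23 window with 19 regions, of which 8 had ubiquitylated peaks only and 2 total peaks only. It contains chr1:159141450-159142281, 832 bp wide, which had the lowest IDR of all members in both lists, 1.02e-07 (ubiquitylated) and 7.73e-06 (total), and lay in neither differential list. Long stretches without any region occurred in every window. The longest ran from the start of the 11q11 window to 55453182 (503 kb, 30.5% of that window), and the nearest region before that window lay 4712 kb away, on the other side of the centromere. In the 1q44 window nothing was found over chr1:247778748-248019902 (241 kb), in 11q12 over chr11:58346379-58542551 (196 kb) and in 11p15 over chr11:5020704-5165449 (145 kb). The longest empty stretches in 11q24 and 1q23 were shorter, 109 and 98.9 kb.

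Peaks of ubiquitylated H2A.Z outnumbered those of total H2A.Z in the windows, 221 against 168, a ratio of 1.32. Over the rest of chromosome 11 the ratio was 1.05 (7462 against 7124), over the rest of chromosome 1 it was 0.913 and over the whole lists 0.999. The ratio was above 1 in all 6 windows, highest in 1q44 (28 against 15 peaks, 1.87) and 11q11 (12 against 7, 1.71), followed by 11q24 (40 against 26, 1.54), 1q23 (47 against 35, 1.34) and 11p15 (55 against 47, 1.17). In 11q12 the 2 lists were nearly equal at 39 against 38. By merged region, 115 members had ubiquitylated peaks only (40.6%, 35.1 to 46.5%), 106 had peaks of both lists (37.5%, 32.0 to 43.2%) and 62 had total peaks only (21.9%, 17.5 to 27.1%). The corresponding shares of all merged regions were 28.9%, 41.9% and 29.2%. The share with ubiquitylated peaks only was above that of all regions in each window, between 35.6% in 11p15 and 53.3% in 11q11. However, the intervals of 11p15, 11q12 and 1q23 include the 28.9% of all regions, with lower ends of 25.6%, 26.6% and 26.0%. Those of 11q11, 11q24 and 1q44 lie above it. The share with total peaks only ranged from 12.5% in 1q44 and 13.0% in 11q24 to 36.1% in 11q12, which was the only window above the genome-wide value.

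The authors' differential lists name the regions whose signal differed between the 2 pull-downs at an FDR of at most 0.05. They called 47 of the 283 members (16.6%), against 21.5% of all merged regions. Members higher in ubiquitylated H2A.Z numbered 33 (11.7%, 8.43 to 15.9%), against a background of 9.39%, which lies inside the interval. Members higher in total H2A.Z numbered 14 (4.95%, 2.97 to 8.13%), against a background of 12.1%. That background lies above the interval. Among called members 70.2% were higher in ubiquitylated H2A.Z (56.0 to 81.4%), compared with 46.2% over the rest of chromosome 11, 38.7% over the rest of chromosome 1 and 43.7% over all called regions. In the flanks of 500 kb, the split ran the other way, with 29 calls towards ubiquitylated and 61 towards total H2A.Z (32.2%, 23.5 to 42.4%). The recovery of the 2 forms relied on different reagents, and that difference cannot be told apart from ubiquitylation here.

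**Figure D2:**
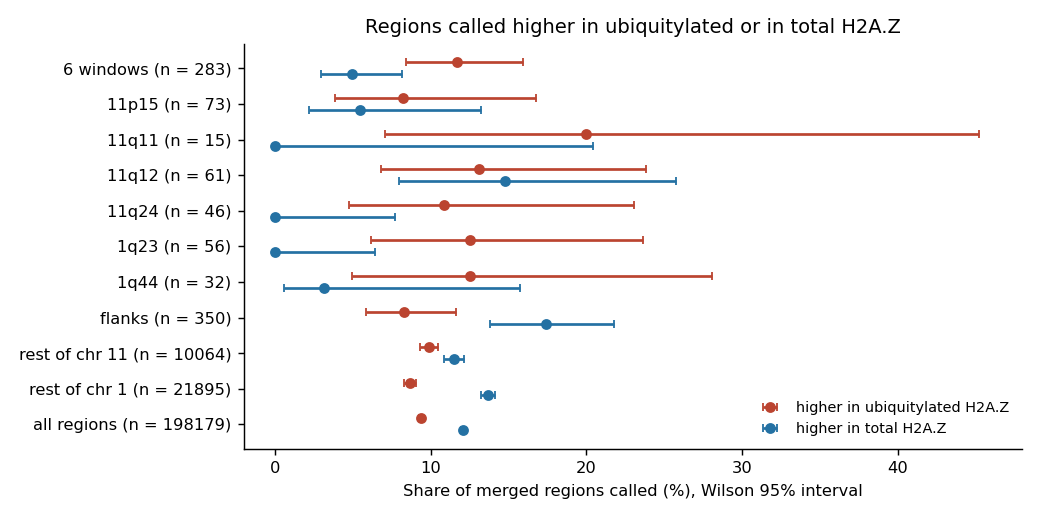
Share of merged regions (x axis, %) called higher in ubiquitylated H2A.Z (red) or in total H2A.Z (blue) at an FDR of at most 0.05, in the windows together, in each window, in their 500 kb flanks, in the rest of chromosomes 11 and 1 and in all regions; bars are Wilson 95% intervals. The 11q11, 11q24 and 1q23 windows have no call towards total H2A.Z, while in 11q12 both shares are close, 13.1% and 14.8%.

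The 6 windows fell into different patterns. The 11q24, 1q23 and 11q11 windows had 5, 7 and 3 calls, all higher in ubiquitylated H2A.Z, and none in the other direction, a count that with 46, 56 and 15 regions allows a share of up to 6.52%, 5.36% and 20.0% (3 counts of the total, counting error only). The 1q44 window had 4 calls towards ubiquitylated and 1 towards total H2A.Z (12.5% and 3.13% of its regions). In 11p15 there were 6 and 4 (8.22% and 5.48%). In 11q12, 8 calls lay on the ubiquitylated and 9 on the total side (13.1% and 14.8%). This window thus held most of the calls towards total H2A.Z among members. The ubiquitylated share of calls had intervals of 37.6 to 96.4% (1q44), 31.3 to 83.2% (11p15) and 26.2 to 69.0% (11q12). Each of these includes the 43.7% of all called regions. Without 11q12, the share of members higher in total H2A.Z was 2.25% and the share of calls higher in ubiquitylated H2A.Z was 83.3%. Leaving out any other single window gave 4.76 to 6.17% and 65.0 to 73.0% for these shares. Where changes of at least 2-fold were required, the lean of the windows was small: 6 members lay on the ubiquitylated side (2.12%, background 1.47%) and 7 on the total side (2.47%, background 2.39%), so that 46.2% of these calls lay on the ubiquitylated side, against 38.0% of such calls over all regions.

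**Figure D3:**
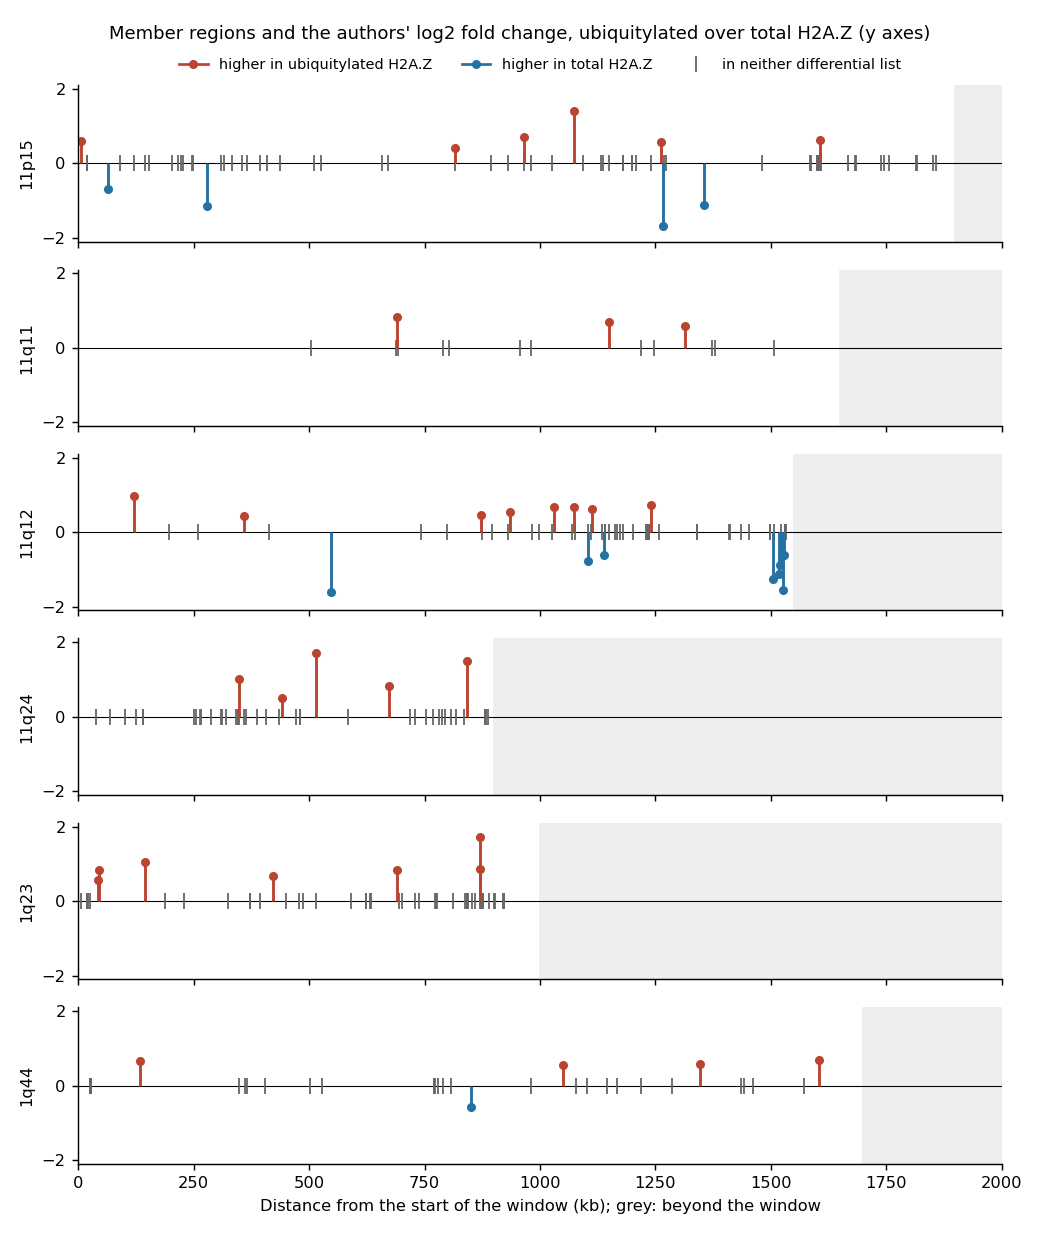
Position of every member region along its window (x axis, kb from the window's start) with the authors' log2 fold change of ubiquitylated over total H2A.Z (y axis) for the 47 called regions; short grey marks at 0 are members in neither differential list, and grey shading lies beyond the window. Calls in 11q24, 1q23 and 11q11 all point upwards, and 6 calls towards total H2A.Z crowd together at the far end of 11q12.

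The 11q24 window held 3 of the 6 members at least 2-fold higher in ubiquitylated H2A.Z. The region chr11:124114689-124114955 had a log2 fold change of 1.72 (FDR 5.5e-06) in the authors' deposited table, the smallest FDR among members higher in ubiquitylated H2A.Z. Next by FDR came chr11:124273190-124274067, a wider region of 878 bp, with 0.82 (FDR 1.2e-05) in the authors' deposited table, where chr11:124441006-124441231 had a log2 fold change of 1.49 (FDR 0.00012). All 5 called regions of this window had ubiquitylated peaks only. The window also held the second widest member, chr11:123946204-123947270 (1067 bp, peaks of both lists), which was in neither differential list.

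In the 1q23 window the largest change of all members towards ubiquitylated H2A.Z was found at chr1:159169090-159169258, a region of 169 bp with a log2 fold change of 1.73 (FDR 7.4e-05) in the authors' deposited table. It lies in the crowded tile described above. At the other end of the window, chr1:158343864-158344511 had peaks of both lists and a log2 fold change of 0.83 (FDR 1.3e-05) in the authors' deposited table, and chr1:158443442-158443754 reached 1.04 (FDR 0.00012) there. In the middle of the window, chr1:158721933-158722397 had the third lowest IDR of members in the ubiquitylated list, 4.54e-07, and a log2 fold change of 0.66 (FDR 0.00085) in the authors' deposited table. The 7 calls of the window spanned 828 kb with no call in the other direction among the 39 members of that stretch.

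In the 11q11 window the authors' deposited table gave log2 fold changes of 0.82 (FDR 0.00079) for chr11:55640602-55641101, which had peaks of both lists, 0.69 (FDR 0.0014) for chr11:56099352-56100023 and 0.58 (FDR 0.017) for chr11:56263958-56264739. The last pair had ubiquitylated peaks only, with IDR values of 0.0321 and 0.0403, near the limit of 0.05. The peaks of this sparse window had a higher median IDR than those of all members, with overlapping quartiles. Their median was 0.00662 in the ubiquitylated list (12 peaks) and 0.0101 in the total list (7 peaks), against 0.0012 and 0.00477 over all members.

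The 1q44 window resembled it, with a median IDR of 0.0059 in the ubiquitylated and 0.00902 in the total list. The 5 called regions of 1q44 were 398 to 677 bp wide, and their changes were moderate. In the authors' deposited table chr1:248854937-248855613 had a log2 fold change of 0.68 (FDR 0.0022) and chr1:248597018-248597653 of 0.57 (FDR 0.0029). The second of these had peaks of both lists and the second lowest IDR of all members in the ubiquitylated list, 3.88e-07. One region stood against its own peak class. It was chr1:248100535-248101012, where a peak was found in the ubiquitylated list alone (IDR 0.00647) but the authors' deposited table gave a log2 fold change of -0.58 (FDR 0.016), towards total H2A.Z. Such regions numbered 73 of 57268 with ubiquitylated peaks only over the whole series (0.128%).

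The 11p15 window, which by general knowledge includes the beta-globin genes, showed calls in both directions, interleaved. The widest member, chr11:4355655-4356734 (1080 bp, peaks of both lists), lay just inside its start and had a log2 fold change of 0.61 (FDR 0.00026) in the authors' deposited table. Further along, the authors' deposited table lists 0.71 (FDR 0.00067) for chr11:5315568-5316174 and 1.40 (FDR 0.012) for chr11:5423143-5423310, a narrow region of 168 bp. Towards total H2A.Z, chr11:4629091-4629513 had a log2 fold change of -1.15 and the smallest FDR of all members, 2.3e-06, in the authors' deposited table. The largest change in that direction among members was at chr11:5617378-5617573 with -1.69 (FDR 3.7e-05) in the authors' deposited table. The 4 calls from chr11:5165450 to chr11:5611587 were all higher in ubiquitylated H2A.Z, and the very next member, chr11:5617378-5617573, was called in the opposite direction.

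In the 11q12 window the 2 directions were interleaved over much of its length. A series of 4 calls over chr11:58672577-58874118 (202 kb, 11 regions) was higher in ubiquitylated H2A.Z. It included chr11:58830040-58831032, 993 bp wide with ubiquitylated peaks only (IDR 2.69e-06), with a log2 fold change of 0.67 (FDR 8.2e-05) in the authors' deposited table. Further on, chr11:58912154-58912839 had 0.63 (FDR 0.0021), and chr11:58939121-58939492, with peaks of both lists and the second lowest IDR of members in the total list (3.33e-05), had -0.62 (FDR 0.0074) in the authors' deposited table. At the far end, 6 of the 8 regions over chr11:59304293-59329235 (24.9 kb) were higher in total H2A.Z, and their median log2 fold change was -1.01, by the authors' deposited table. All 6 had total peaks only. The strongest were chr11:59304293-59304581 with -1.26 (FDR 0.00033) and chr11:59325227-59325375 with -1.56 (FDR 0.0012) in the authors' deposited table. The end tile of 50 kb, chr11:59300001-59350000, held 11 regions, 10 of them with total peaks only, and the next region beyond the window, chr11:59436082-59436283, was also higher in total H2A.Z (log2 fold change -1.16, FDR 0.0047, in the authors' deposited table). The call at chr11:58346223-58346378, which borders the longest empty stretch of the window, had -1.61 (FDR 0.00038) in the authors' deposited table. When calls in 1 direction less than 10 kb apart were counted once, the windows had 31 calls towards ubiquitylated and 10 towards total H2A.Z (75.6% and, over all regions, 41.7% towards ubiquitylated). Of 41 pairs of adjacent called members, 28 (68.3%) shared a direction, against 72.5% of such pairs over all chromosomes. Pairs were taken at any distance, regions are sparser in the windows, and the split of calls by direction differs. The 2 shares are therefore not like measures.

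Peak class and direction were linked as elsewhere, since both rest on the same libraries. Of the 115 members with ubiquitylated peaks only, 23 (20.0%, 13.7 to 28.2%) were higher in ubiquitylated H2A.Z, against 23.8% over all regions of that class. Of the 62 with total peaks only, 12 (19.4%, 11.4 to 30.9%) were higher in total H2A.Z and none in ubiquitylated H2A.Z (a count that allows up to 4.84%), against 30.5% and 0.0831% over all regions. The class with peaks of both lists differed from its counterpart in the genome mainly in calls towards total H2A.Z. Among its 106 members 10 (9.43%, 5.21 to 16.5%) were called towards ubiquitylated and 1 (0.943%, 0.167 to 5.15%) towards total H2A.Z, whereas over all 83120 regions with both peaks the shares were 5.97% and 7.52%. The interval for calls towards ubiquitylated H2A.Z includes the 5.97%, and that for calls towards total H2A.Z lies below the 7.52%. In 65 of these 106 members (61.3%) the ubiquitylated peaks covered more bases than the total peaks, against 44.7% of all regions with both. The median ratio of covered bases was 1.02 in the windows and 0.983 over all. The ubiquitylated peak had the lower IDR in 82 of the 106 (77.4%, against 69.9% over all regions with both). No interval was computed for the comparisons of covered bases and of IDR.

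Member regions were narrower than merged regions over the whole genome, by a margin that was smaller against their surroundings. The median width was 279 bp (quartiles 199 and 420, 95% interval of the median from order statistics 257 to 305) against 313 bp (219 and 489) over all regions. The median was 297 bp in the flanks of 500 kb and 300 bp over the rest of chromosome 1, both inside that interval, and 324 bp over the rest of chromosome 11. Widths of at most 200 bp, near the length of a single nucleosome with its linker, made up 25.8% of members, 23.1% of regions in the flanks, 20.6% over the rest of chromosome 1, 17.7% over the rest of chromosome 11 and 19.0% of all regions. Only 2 members (0.707%) were wider than 1000 bp, against 4.90% of all regions. The median was lower than that of all regions in each peak class, with values of 243 against 276 bp for ubiquitylated peaks only, 374 against 425 bp for peaks of both lists and 224 against 251 bp for total peaks only. As elsewhere, called members were wider on the ubiquitylated side, with a median of 500 bp for the 33 of that side, 293 bp for the 14 on the total side and 267 bp for the 236 in neither list. The corresponding medians over all regions were 507, 362 and 295 bp. In the authors' deposited table, log2 fold changes of the 33 members on the ubiquitylated side had a median of 0.68 (0.41 to 1.73), as had those of all regions on that side. For the 14 on the total side, the median in the authors' deposited table was -0.998 (-1.69 to -0.58), and it was -0.76 over all regions. The median IDR of member peaks was 0.0012 in the ubiquitylated list, where the whole list had 0.00137, and 0.00477 in the total list, where the whole list had 0.00335.

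**Figure D4:**
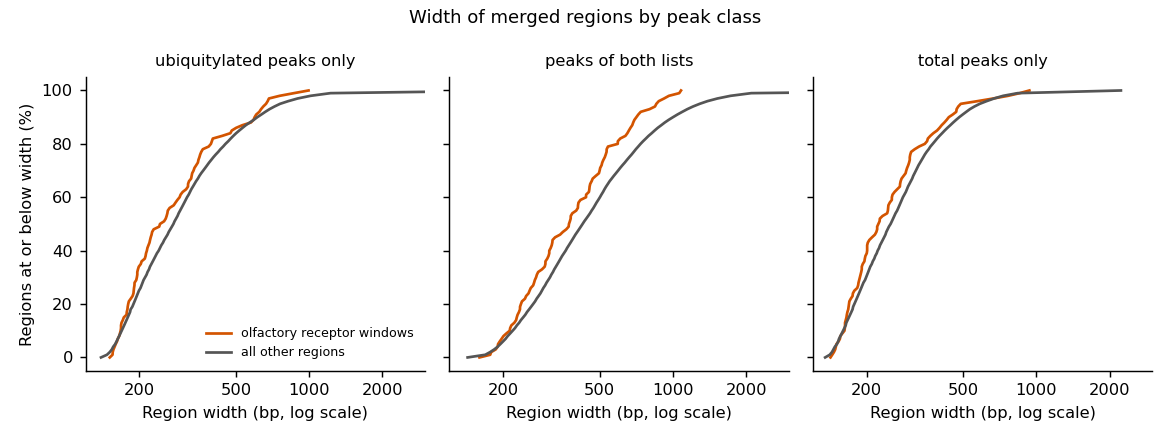
Cumulative share of regions (y axis, %) at or below a given width (x axis, bp, log scale) for members (orange) and all other regions (grey), by peak class. In all 3 classes the orange curve runs left of the grey one over most of the range, though not among the narrowest regions, and only 2 of 283 members exceed 1000 bp.

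Autosomal stretches of like density had larger shares of total peaks only and of calls towards total H2A.Z than the windows. Their shares with peaks of both lists and of calls towards ubiquitylated H2A.Z were closer to those of the windows. These differences were not tested. Stretches of 1 Mb outside the windows were put in 4 classes at the quartiles of their number of regions. The third class (above 37 and up to 92 regions) covers the densities of 11p15, 11q12, 11q24 and 1q23, the second (above 18 and up to 37) that of 1q44 and the sparsest (at most 18) that of 11q11. Ubiquitylated peaks only were found in 40.6% of members, against 37.3%, 31.9%, 27.2% and 27.8% of regions from the sparsest class to the densest. The value of the sparsest class lies inside the members' interval. Total peaks only made up 21.9% of members, against 33.0%, 34.9%, 36.0% and 26.5% in the same order. Calls towards total H2A.Z were 4.95% of members, against 14.5%, 16.1%, 15.6% and 10.7% of regions. Calls towards ubiquitylated H2A.Z differed less, at 11.7% of members against 9.74%, 9.20%, 7.35% and 9.80%. All but the third of these values lie inside the members' interval. Of all calls, 70.2% were on the ubiquitylated side in the windows, against 40.2%, 36.3%, 32.1% and 47.7%. The median width was 279 bp in the windows, and 294, 286, 284 and 331 bp in the 4 classes, of which the first 3 values lie inside the windows' interval.

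At the borders of the windows, the nearest region inside and outside each of the 12 edges was taken. Of the 12 just inside, 5 had peaks of both lists, 5 ubiquitylated peaks only and 2 total peaks only. Of the 12 just outside, the counts were 4, 6 and 2. Calls towards ubiquitylated and total H2A.Z numbered 3 and 0 inside, and 0 and 2 outside. These counts are too small to show whether classes or calls change at the edges. Over the flanks of 500 kb, 29.4% of regions had ubiquitylated peaks only and 31.1% total peaks only, against 40.6% and 21.9% of members. Distances of the nearest regions from the edge had a median of 40.5 kb inside and 19.8 kb outside. Counting regions that overlap a window anywhere, in place of those with their midpoint inside, gave the same 283 members.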

How the data were processed

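ChIP-seq of ubiquitylated H2A.Z, total H2A.Z and histone H3 (2 samples each, grouped by their titles) was done on nuclei digested for 30 minutes with micrococcal nuclease, per the labels' protocols. The submitters' processing notes name Bowtie, SAMtools, MACS2, edgeR and hg19, without versions, settings or roles. The authors deposited 1 peak list for each H2A.Z form, with a q-value-like IDR per peak, read as such because it never exceeds 0.05 and the lists' names give that limit. A further 2 lists deposited by the authors hold differential regions with an FDR and a fold change, read as log2 of ubiquitylated over total H2A.Z because edgeR writes that scale; base and normalization are not stated.

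Starts were raised by 1 base to 1-based coordinates, and peaks of both lists were merged where they overlapped or touched. All 42574 differential regions matched a merged region exactly. No count test was possible, and no test of difference was made here: calls are the authors'. Regions were named by a rule: the 2 calls of smallest FDR per window and direction, the 5 largest changes per direction, the 3 widest members, the 3 of lowest IDR per list and the longest empty stretch per window; the others named (such as neighbours beyond an edge, or calls in a crowded stretch) were picked after their values were seen. The windows and choices were made with earlier results of these data known. Merging and window assignment were tested on simulated data. Densities of chromosomes use the span from first to last region. Analyses ran in Python 3.11.15 with pandas 2.3.3, scipy 1.17.1, numpy 2.4.6, matplotlib 3.10.9 and, for a check of the merging, bedtools 2.31.1.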

Additional observations from a re-analysis of the deposited data

How the results depend on the processing

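No paired analysis was possible because the lists give no values per library; for the same reason no replicate was left out. Of 85 alternative values under 14 settings, 70 stayed inside the 95% interval of the reported value. This count says little about robustness. Most of the alternatives leave out 1 window and keep most of the same regions. Counting any overlap with a window returned the same 283 members, so its values could not move. Most values under the other settings moved. With peaks of IDR under 0.01 the density was 25.1 per Mb, 47.7% of members had ubiquitylated peaks only (36.4% of all regions) and 31.2% had both, and the median IDR was 0.000773 in the ubiquitylated and 0.00202 in the total list, as follows from removing peaks of higher IDR. With an FDR under 0.01, 6.36% of members were higher in ubiquitylated (all regions 5.16%) and 2.83% in total H2A.Z (all regions 7.09%). With at least 2-fold changes these were 2.12% and 2.47%, and 46.2% of 13 calls were higher in ubiquitylated H2A.Z. Both fall because fewer regions pass. For the members that have peaks in both lists, 0.943% were higher in total H2A.Z and 90.9% of 11 calls were higher in ubiquitylated H2A.Z. Leaving out 11q11 gave 38.0 regions per Mb. Leaving out 11q12 gave 2.25% higher in total H2A.Z and 83.3% of 30 calls higher in ubiquitylated H2A.Z. With any other single window left out these shares were 4.76 to 6.17% and 65.0 to 73.0%, inside the intervals of the reported values. The share of calls higher in ubiquitylated H2A.Z ran from 46.2 to 90.9% and was above that of all regions in 11 of 11 alternatives. These alternatives all draw on the same 47 calls, so they are not independent support. The lowest, 46.2% at 2-fold, rests on 13 calls and stands against 38.0% of all regions. In this family, counting calls within 10 kb once was chosen after seeing the data. Median width stayed between 276 and 281 bp. The few calls per window limit what can be said of single windows.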
